A study of Caenorhabditis elegans with 2 samples.

Results

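The 9 *Caenorhabditis elegans* genes described here encode proteins of the DREAM complex and of the E2F family: *lin-35*, *efl-1*, *efl-2*, *dpl-1*, *lin-9*, *lin-37*, *lin-52*, *lin-53* and *lin-54*, out of 19985 protein-coding genes. A further E2F family gene, *efl-3*, is not among the 9 and is counted in a related list below. Occupancy by LSY-2, a zinc finger transcription factor, was measured by ChIP-seq in mixed-stage embryos of the line OP367, which carries *unc-119*(tm4063) III and the integrated transgene wgIs367, from which eGFP-tagged LSY-2 is made. The samples were 2 biological replicates of whole animals, both sexes pooled, in 1 group with no comparison group, and the labels give no age. A single transgenic line was used, so what is measured is the tagged protein of that line, and whole embryos mix all their cell types. Each replicate is a list of 30000 peaks, the pooled replicates are another list of 30000, and 2568 peaks were kept by the authors after filtering on the irreproducible discovery rate (IDR). A member was given every IDR summit from 1000 bp before to 300 bp past the 5' end of one of its protein-coding transcripts. The members were chosen by values of these same lists, namely the presence, rank and position of their peaks, so their counts, ranks and distances are descriptions and carry no test. Read numbers were not used here, so the depth behind each peak is unknown.

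DREAM is a repressor complex that holds cell cycle and developmental genes low. In the worm it joins LIN-35, the only retinoblastoma family protein of this animal, with an E2F/DP heterodimer and the MuvB core of LIN-9, LIN-37, LIN-52, LIN-53 and LIN-54. The heterodimer reads E2F sites and LIN-54 reads the cell cycle genes homology region (CHR) through its cysteine-rich domain. In the worm, genes of the complex are known as synthetic multivulva class B (synMuv B) genes, which together with class A genes restrain vulval fate.

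The stretches under 4 of the member summits are shown because the positions and motifs described below can be read in them. Each runs 5' to 3' in the direction of its gene, is 201 bases long with the summit as its middle base, and comes from the RefSeq sequence of WBcel235, the assembly of the ce11 build. Capitals mark an E2F core (TTCCCGC or GCGGGAA), a CHR (TTTGAA or TTCAAA) or the hexamer GAGACC or GGTCTC.
*lin-9*, minus strand, chrIII:8904187-8904387: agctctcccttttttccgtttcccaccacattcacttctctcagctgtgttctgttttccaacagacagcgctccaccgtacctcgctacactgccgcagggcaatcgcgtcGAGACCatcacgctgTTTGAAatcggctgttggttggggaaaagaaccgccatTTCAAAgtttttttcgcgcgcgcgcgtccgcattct
*lin-54*, plus strand, chrIV:13240573-13240773: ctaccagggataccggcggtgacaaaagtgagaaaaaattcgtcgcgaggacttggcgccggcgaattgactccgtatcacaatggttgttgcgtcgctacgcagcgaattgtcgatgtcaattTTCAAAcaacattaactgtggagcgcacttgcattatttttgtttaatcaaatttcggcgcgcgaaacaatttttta
*efl-1*, minus strand, chrV:16965764-16965964: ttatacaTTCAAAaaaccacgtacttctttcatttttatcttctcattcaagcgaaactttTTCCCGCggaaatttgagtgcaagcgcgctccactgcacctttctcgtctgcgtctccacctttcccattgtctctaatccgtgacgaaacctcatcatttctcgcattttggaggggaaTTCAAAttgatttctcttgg
*dpl-1*, plus strand, chrII:9169552-9169752: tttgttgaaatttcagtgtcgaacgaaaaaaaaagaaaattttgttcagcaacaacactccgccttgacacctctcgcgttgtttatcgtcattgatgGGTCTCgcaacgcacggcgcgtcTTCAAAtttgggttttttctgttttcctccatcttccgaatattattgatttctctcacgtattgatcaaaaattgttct

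LSY-2 summits lay upstream of most of the 9 genes. Of the 9 members, an IDR summit fell in the promoter window of 6, or 66.7%, against 12.6% of all protein-coding genes (2519 of 19985). They were *lin-35*, the E2F gene *efl-1*, the DP gene *dpl-1* and the MuvB genes *lin-9*, *lin-53* and *lin-54*, and each had exactly 1 summit. The E2F gene *efl-2* and the MuvB genes *lin-37* and *lin-52* had none. The rank of a peak is its place by the authors' signal value (column 7), with 1 the strongest. The 6 members had a median rank of 338, against a median best rank of 1053 over all 2519 genes with a summit. With the first 2568 peaks of replicate 1 alone, the members' median was 206, since *dpl-1* ranked 3037 there and was left out. With the first 2568 peaks of replicate 2 alone it was 363.

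Among the MuvB genes, *lin-53* and *lin-9* had some of the strongest peaks of the whole list in their promoter windows. *lin-53* (WBGene00003036, chromosome I, 9618196 to 9619760, minus strand) encodes the worm homologue of the histone-binding proteins RbAp46 and RbAp48, which also serves in nucleosome remodelling and histone deposition complexes. Its peak, from 9619766 to 9620240, had a signal of 2487 and rank 8 in the IDR list. It ranked 9 in replicate 1 and 8 in replicate 2, so the replicates placed it almost alike. The summit lay in intergenic sequence at -241 bp from the *lin-53* 5' end. It was slightly closer, at -226 bp, to the 5' end of *nra-2* on the other strand. The lists cannot tell which of the genes this peak belongs to. The paralogue *rba-1* (WBGene00004312) follows *lin-53* on the same strand after a gap of 88 bp and had no IDR summit; its strongest pooled-list peak ranked 21775.

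*lin-9* (WBGene00002998, chromosome III, 8900237 to 8904131, minus strand) encodes a conserved core protein of MuvB. Its peak, from 8904062 to 8904513, had a signal of 1574 and rank 32, with rank 30 in replicate 1 and 36 in replicate 2. The summit lay at -156 bp, the shortest distance from a member's own 5' end among the 6. A further IDR summit of rank 2350 and signal 36 lay at -1265 bp, in the window of *unc-32*, which encodes a subunit of the vacuolar proton pump, and one of rank 2137 and signal 38.9 lay past the 3' end of *lin-9*, at 4179 bp from its 5' end. Neither of these weaker summits lies in the promoter window of *lin-9*.

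*lin-54* (WBGene00003037, chromosome IV, 13241044 to 13243401, plus strand) encodes the DNA-binding subunit of MuvB. Its peak, from 13240544 to 13240846, had a signal of 303 and rank 207, and the ranks in replicates 1 and 2 were 206 and 211. The summit was at -371 bp from the first of 3 annotated *lin-54* 5' ends. It was the most distant of the 6 from its own gene, while *rpl-12*, a large ribosomal subunit protein gene on the other strand, has its 5' end much closer, with the summit at -22 bp. The lists cannot tell which of these genes the peak belongs to.

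The pocket protein and its E2F/DP partners had weaker peaks than *lin-53*, *lin-9* and *lin-54*. The E2F gene *efl-1* (WBGene00001161, chromosome V, 16958590 to 16965675, minus strand), which encodes the E2F of the worm complex, had a peak from 16965759 to 16965909 with a signal of 116 and rank 469. Its rank was 469 in replicate 1 and 515 in replicate 2, and its summit lay at -189 bp. *lin-35* (WBGene00003020, chromosome I, 5807709 to 5815637, plus strand) had a peak from 5807445 to 5807579 with a signal of 93.7 and rank 604. There the replicates were further apart, with rank 982 in replicate 1 and 533 in replicate 2. Its summit lay in intergenic sequence at -168 bp, and at -250 bp from the 5' end of *vps-51* on the other strand. Here too the lists cannot tell which gene the peak belongs to.

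*dpl-1* (WBGene00001061, chromosome II, 9169910 to 9172565, plus strand), the gene of the DP subunit, had the weakest IDR peak of the members, from 9169462 to 9169841 with a signal of 42.1 and rank 1943. Replicate 1 placed it at rank 3037, below its first 2568 peaks, and replicate 2 at rank 1459. The summit, at -258 bp, fell in an exon of T23G7.2, a gene that spans *dpl-1* on the other strand. The last of the 2568 IDR peaks had a signal of 33.4. Among the members outside the list, *lin-52* had the strongest peak, with 26.1 in the pooled list.

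**Figure D1:**
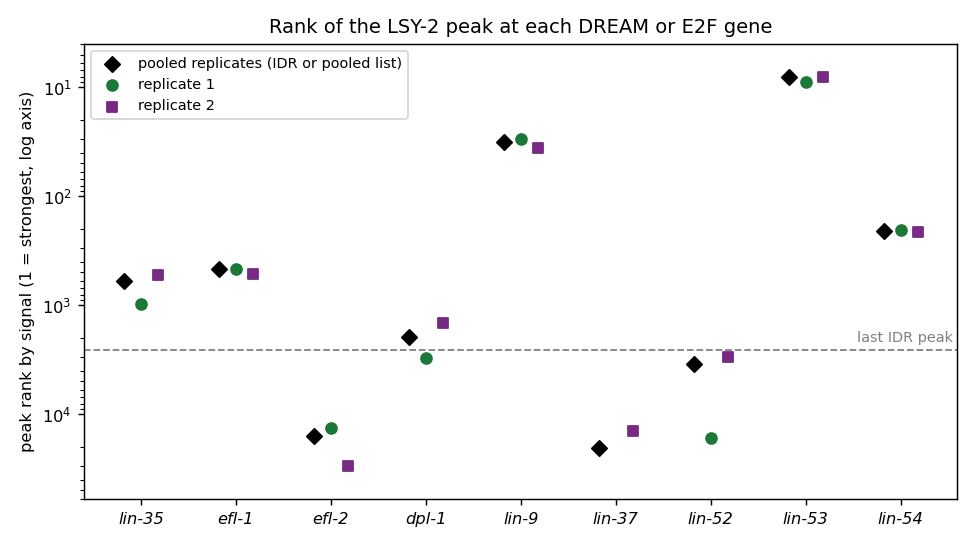
Peak rank by signal (log axis, strongest at the top) at each of the 9 genes in the pooled replicates, replicate 1 and replicate 2; the dashed line is the last of the 2568 IDR peaks. *lin-53*, *lin-9* and *lin-54* lie high with nearly equal ranks in both replicates, *dpl-1* crosses the line in replicate 1, and *lin-37* has no replicate 1 point because no peak there overlapped.

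Peaks below the IDR list were present at each of the members without an IDR summit, as at 31.7% of the 17466 genes without one. *lin-52* (WBGene00003035, chromosome III, 9824083 to 9824750, minus strand), whose product in mammals links the pocket protein to MuvB, came nearest. Its pooled-list peak, from 9824903 to 9825282, had rank 3444 and lay at -343 bp, in the 3' UTR of ZK632.9. It ranked 2981 in replicate 2 and 16687 in replicate 1, with the replicate summits 118 bp apart. Column 9, read as −log10 q because the peak format defines it so and no caller is named, was 2.41 for this deposited peak, within the range of 2.32 to 2.79 of the IDR list, whereas the values at *efl-2* and *lin-37* were 0.32 and 0.24.

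*lin-37* (WBGene00003022, chromosome III, 7070890 to 7072552, minus strand), another MuvB subunit gene, had only a peak of rank 20331 and signal 8.71, from 7072440 to 7072819 at -78 bp. A peak overlapped it in replicate 2, at rank 14199, and none did in replicate 1. *efl-2* (WBGene00001162, chromosome II, 13406140 to 13411895, plus strand), a further E2F family gene, had 2 pooled-list peaks in its window. The stronger, from 13405316 to 13405695, had rank 15976 and signal 10.1, with ranks of 13337 in replicate 1 and 29832 in replicate 2. Both genes thus sat far down a list that, per its label, also holds background.

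The MuvB genes without a summit differed from the other members in their upstream neighbours. *lin-37* begins 60 bp after the end of ZK418.5 and *lin-52* 126 bp after the end of ZK632.9, each on the same strand. None of the other 7 members had a same-strand gene ending within 500 bp of its 5' end. For *lin-37* the nearest IDR summit upstream, of rank 1346 and signal 55.0, lay at -1601 bp, which is -302 bp from the ZK418.5 5' end. For *lin-52* it was a strong peak of rank 104 and signal 894 at -3047 bp. It falls between ZK632.10, the next same-strand gene beyond ZK632.9, and ZK632.11 on the other strand, at -75 and -118 bp from their 5' ends. Close same-strand genes can be transcribed together in worm operons, but operons are not annotated in the sources used here. Whether this bears on the missing summits was not tested, and the 500 bp limit was set after values were seen. Of all genes with such a close upstream gene, 8.82% had an IDR summit (319 of 3615), against 13.4% of the others (2200 of 16370). *efl-2* had no close same-strand gene, and its nearest upstream IDR summit was at -36664 bp.

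**Figure D2:**
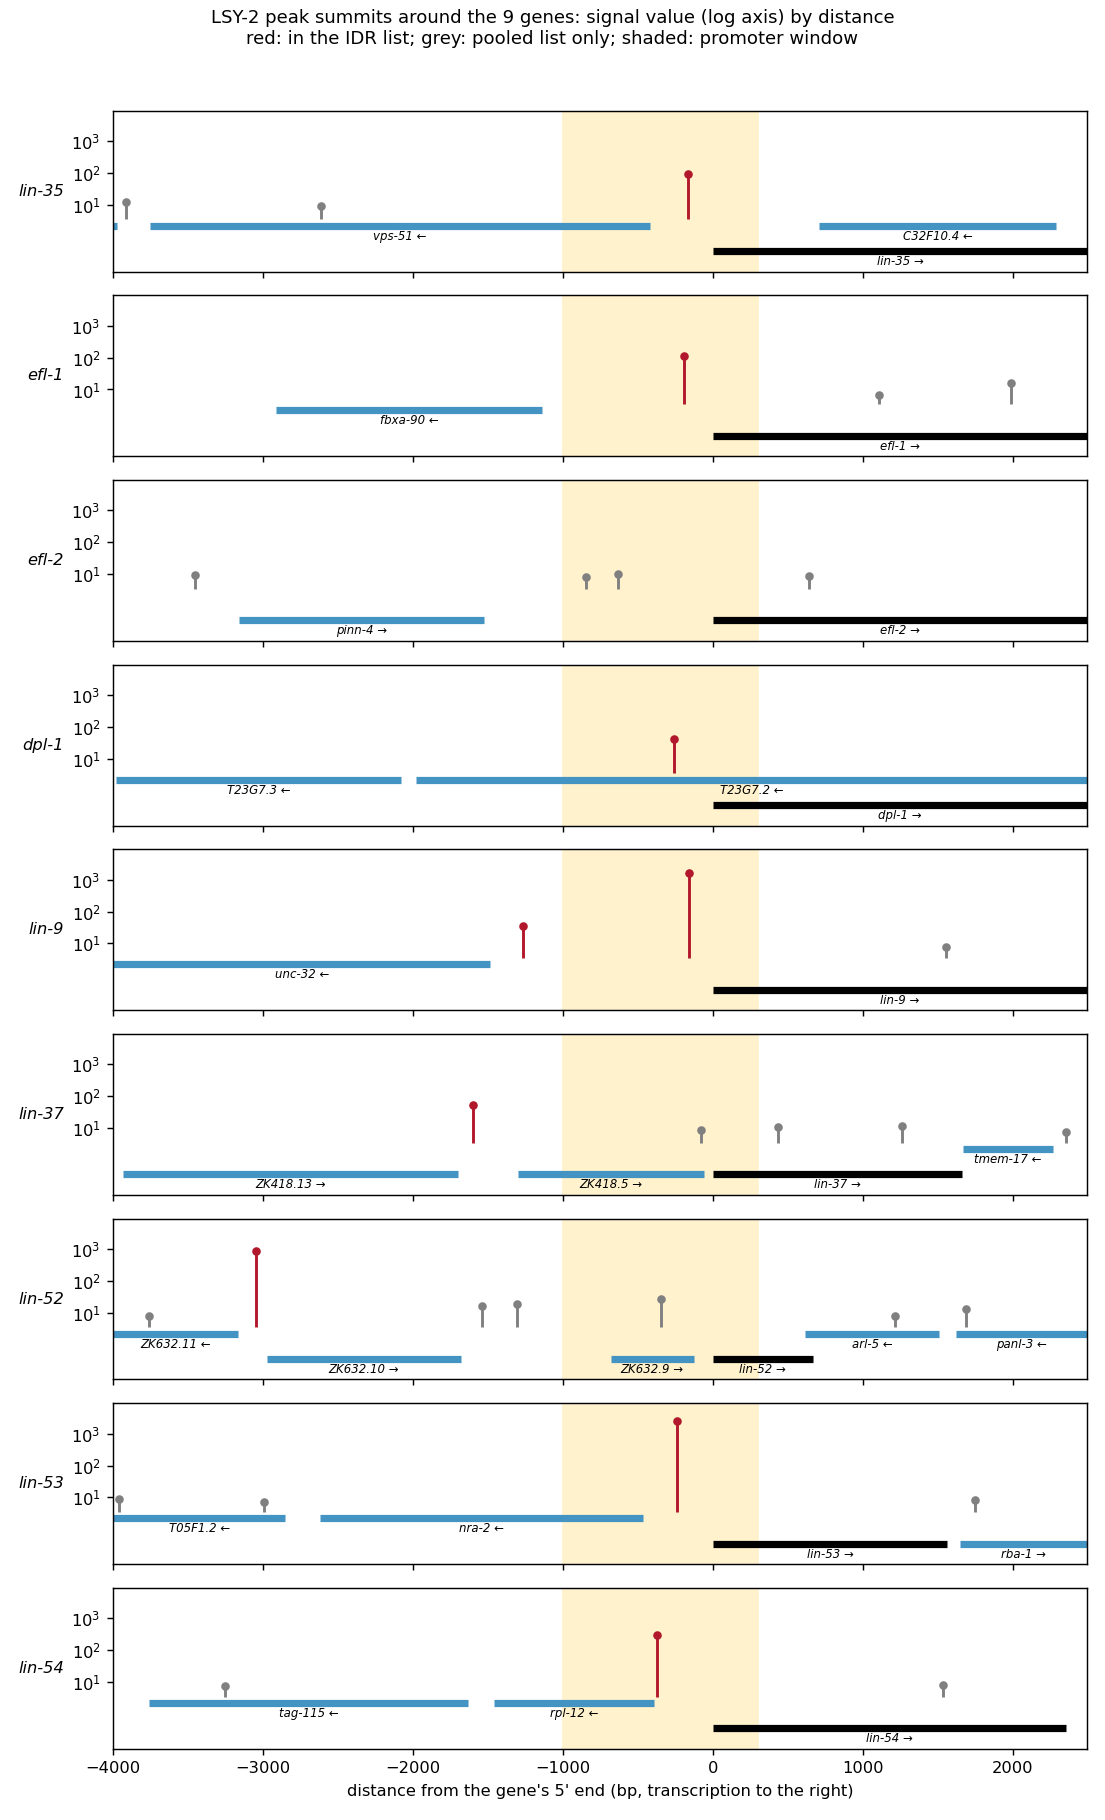
Summits of the pooled list around each gene, with signal value on a log axis against distance from the gene's 5' end in bp, transcription to the right; red summits are in the IDR list, grey ones are not, the shaded band is the promoter window, black bars are the member and blue bars its protein-coding neighbours (right arrows, same strand). Single red summits stand in the bands of 6 genes, and the red summits near *lin-37* and *lin-52* stand upstream of ZK418.5 and ZK632.10.

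All 6 member summits lay upstream of the member's own 5' end, from -371 to -156 bp, with a median of -215 bp. Measured from the nearest 5' end of any protein-coding gene, the median was -178.5 bp for the 6 member summits and -176 bp for the 1828 IDR promoter summits, so the members lay at about the usual distance. In 4 of the 6 members the summit also lay in the promoter window of a gene on the other strand. Of all IDR promoter summits, 40.6% lay in the windows of several genes (742 of 1828). That share counts each summit once, whereas the members are counted by gene. Since a shared summit serves several genes, a share counted by gene would be higher, and it was not computed. The *lin-53* summit was at -226 bp from *nra-2*, a nicalin homologue gene, so that it lies nearly midway between 5' ends 467 bp apart. The *lin-35* summit was at -250 bp from *vps-51*, a vesicle tethering gene, with 418 bp between the 5' ends. At *lin-54* the neighbour was *rpl-12*, and at *efl-1* it was the F-box gene *fbxa-90*, whose 5' end was far off, at -950 bp from the summit. At *lin-9* and *dpl-1* the summit lay in no other gene's window.

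**Figure D3:**
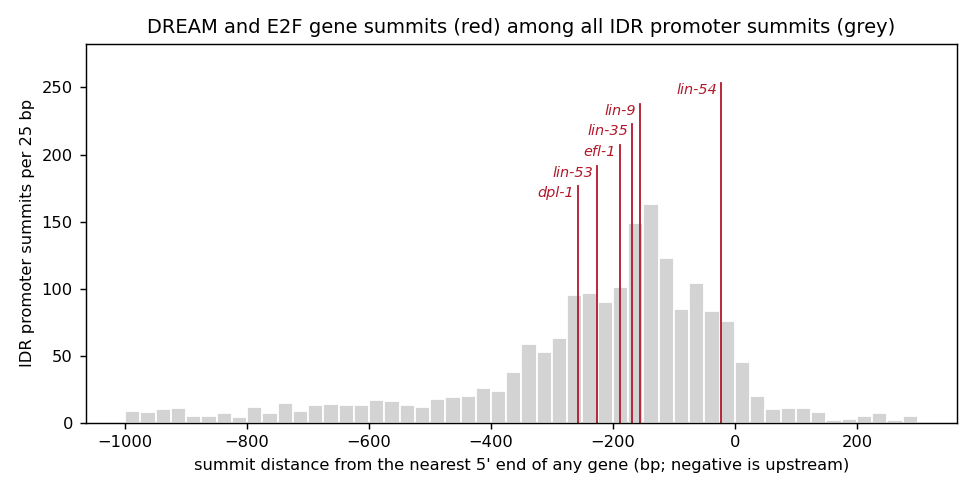
Distance of IDR promoter summits from the 5' end in bp (25 bp bins; grey, 1828 summits, nearest 5' end) with the 6 member summits in red, measured in the same way. The members stand between -258 and -22 bp, inside the main body of the grey distribution.

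The replicates placed the summits of 4 of the 6 members within a few bases of each other. The gap between replicate summits was 4 bp at *lin-53*, 5 bp at *lin-9* and *dpl-1*, 7 bp at *lin-54*, 23 bp at *lin-35* and 25 bp at *efl-1*. Over the 1823 IDR promoter peaks matched in both replicates the median gap was 22 bp, with quartiles of 9 and 44.5 bp. A match among the first 2568 peaks of both replicates was found for 5 of the 6 members, all but *dpl-1*, against 76.9% of IDR promoter peaks (1405 of 1828). The larger replicate rank was 1.02 times the smaller at *lin-54*, 1.1 at *efl-1*, 1.12 at *lin-53*, 1.2 at *lin-9*, 1.84 at *lin-35* and 2.08 at *dpl-1*, where the median over all matched promoter peaks was 1.35. At *lin-52*, outside the IDR list, this ratio was 5.6.

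The motifs of the complex itself were looked for on both strands of the 201 bp windows. Positions are counted from the summit to the first base of the match, in the direction of the gene. An E2F core was found at 1 of the 6 members, against 5.31% of the 1828 IDR promoter windows and 2.12% of windows set at -176 bp from the 5' ends of 17465 nuclear genes without an IDR summit. That match, at *efl-1*, was at -39 bp. A CHR was found at 5 of the 6, all but *lin-35*, against 42.2% and 50.8% of these sets of windows. The matches lay at -93 and 81 bp in *efl-1*, at 27 and 65 bp in *lin-9*, at 21 bp in *dpl-1*, at 24 bp in *lin-54* and at -41 and 56 bp in *lin-53*. At 6 letters the CHR is common in promoters of every kind, and a match is a description of the letters, not a binding site.

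A run of 13 letters was shared by the *dpl-1* and *lin-53* windows on opposite strands, the longest run shared by any pair of the 6 windows. It covers the octamer GCGAGACC, which contains the hexamer GAGACC; both were picked after the windows had been seen. The octamer began at -2 bp in *dpl-1*, where it reads GGTCTCGC, and at 17 bp in *lin-53*. The hexamer alone was found at 12 bp in *lin-9*, so 3 of the 6 members had the hexamer and 2 the octamer. Among all IDR promoter windows 14.8% held the hexamer and 6.73% the octamer, and among the windows of genes without an IDR summit 5.16% and 0.636% did. *lin-35*, *efl-1* and *lin-54* had neither.

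The windows differed in base composition. G and C made up 53.2% of the *lin-9* window, 47.3% at *lin-53*, 44.8% at *lin-54*, 42.3% at *efl-1*, 38.8% at *dpl-1* and 36.8% at *lin-35*, where the median of IDR promoter windows was 39.8% with quartiles of 35.3% and 45.8%. *lin-53*, *lin-9* and *lin-54*, the members with the strongest peaks, thus had the highest values; whether base composition plays a part in peak strength was not tested. Soft-masked (repeat or low-complexity) letters took up 108 of the 201 bases at *lin-54* and 18 at *lin-53*, against a median of 67.

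Genes of related pathways were counted in 4 lists, with 44 genes in all, of which 19 had an IDR summit (43.2%, beside the 12.6% of all protein-coding genes). The lists were chosen with earlier results of these data known, so their shares are descriptions and carry no test. Partners of LIN-53 in NuRD, MEC, CAF-1 and HAT1 complexes had a summit at 5 of 10. They were *hat-1*, a histone acetyltransferase gene, at rank 424, *chaf-2* of the CAF-1 histone chaperone at 755, the zinc finger gene *mep-1* at 1069, the histone deacetylase gene *hda-1* at 1098 and *dcp-66* at 2074. The *hda-1* summit lay at -953 bp and also in the window of *ril-1*. The *hat-1* and *chaf-2* summits likewise lay in the window of another gene. *let-418*, *chd-3*, *lin-40*, *rba-1* and *chaf-1* had none. SynMuv B genes outside DREAM had a summit at 2 of 8, *lin-36* at rank 550 and the zinc finger gene *lin-13* at 1644. The *lin-13* summit was at -730 bp, and *lin-15B*, *lin-61*, *hpl-2*, *met-2*, *tam-1* and *lin-65* had none.

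Cell cycle genes on either side of the complex made up the remaining lists, to be read beside the same 12.6% of all protein-coding genes. Of 14 genes of G1 and S phase control, 5 had a summit: *cye-1*, which encodes cyclin E, at rank 493, the F-box gene *lin-23* at 919, the phosphatase gene *cdc-14* at 1447, *cdk-4* at 1548 and the inhibitor gene *cki-1* at 1827. The cyclin D gene *cyd-1* and *efl-3*, a further E2F family gene, had none. Of 12 replication genes known as E2F targets in animals, 7 had a summit. The helicase gene *mcm-4* ranked 316, *pcn-1*, which encodes the sliding clamp, 477, and the loading factor gene *cdc-6* 520. *mcm-7*, *mcm-5*, *cdt-1* and *mcm-3* followed at 657, 1790, 1865 and 2247. The *cye-1*, *cdc-14*, *cdk-4*, *cdc-6*, *mcm-7* and *mcm-3* summits also lay in the window of another gene. Those of *lin-23* and *cye-1* lay far from the 5' end, at -938 and -581 bp. No gene of these lists had a peak as strong as those of *lin-53*, *lin-9* or *lin-54*. No control sample was used, and the part that open or active promoters play in these shares was not tested.

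**Figure D4:**
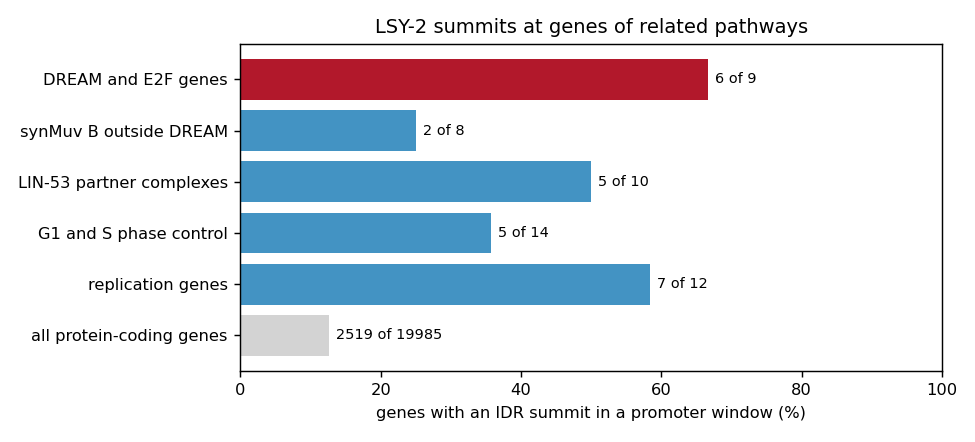
Share of genes whose promoter window holds an IDR summit (%), for the 9 DREAM and E2F genes (red), the 4 related lists (blue) and all protein-coding genes (grey), with counts beside the bars. The 9 genes stand at 66.7%, the related lists from 25% to 58.3%, and all genes at 12.6%.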

How the data were processed

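ChIP-seq peak lists of 2 biological replicates were analysed. Per the deposited metadata, the authors called peaks and background for each replicate and for the pooled replicates, and derived the IDR list from these, on ce11; the sources used here name no aligner or caller, and the IDR threshold is likewise not stated in them. Each deposited peak carries a signal value, whose scale is set within its list, a column read as −log10 q-value from the format's definition, and a summit offset in bp, taken as a position (unit other). The 2568 IDR peaks were the 2568 strongest of the pooled list. Lists were ranked by signal, and only ranks were compared between lists. Genes and 5' ends came from Ensembl release 115 (WBcel235), and no IDR, pooled or replicate peak ended beyond its chromosome. A replicate peak matched from 1 bp of overlap, the best-ranked one being used. For members without an IDR summit, the strongest pooled-list peak in the window is given.

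Named were the 9 members, genes sharing their summits, and up to 4 genes of each related list by rank; further genes of those lists, the GAGACC motifs and the 500 bp limit on upstream neighbours were added after values were seen. The members and lists were chosen with earlier results of these data known. No test was made, since the members were chosen from these lists and there is 1 group. Assignment to windows was tested on simulated data, where 200 of 200 planted summits were placed right. Alternatives were other windows, 5' ends, thresholds and motif windows, midpoints and each replicate alone. The deposited lists on ce10 were not used. The tools were pandas 2.3.3, numpy 2.4.6 and matplotlib 3.10.9 under Python 3.11.15.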

Additional observations from a re-analysis of the deposited data

How the results depend on the processing

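In the settings without 1 replicate, the first 2568 peaks of the other replicate's own list stood in for the IDR list. The number of members with a summit was 6 with a promoter window of 500 bp before to 100 bp past the 5' end. It was also 6 with outermost 5' ends, with midpoints and without replicate 1. With the 1284 strongest peaks and without replicate 2 it was 5 (*dpl-1* lost). It was 7 (*lin-37* gained) with 2000 bp before to 500 bp past, and 9 with the whole pooled list, where 40.3% of all genes had one. With the window of 2000 bp, all 7 summits lay in another gene's window and the median rank was 469. The median rank was 207 with the 1284 strongest peaks, and 206 to 363 leaving out 1 replicate, lowest without replicate 2. With the shorter window 1 synMuv B gene and 3 of G1 and S phase control had a summit, and with the 1284 strongest peaks 1 and 2 did, as did 4 replication genes. LIN-53 partners with a summit numbered 3 to 5 leaving out 1 replicate, with *hda-1* and *dcp-66* lost without replicate 1. Replication genes with a summit numbered 6 without replicate 2, with *mcm-5* lost. They numbered 7 without replicate 1, but *cdt-1* and *mcm-3* were lost while *mcm-2* and *rnr-1* were gained. Asking for an overlap of 50% of each peak left 3 members matched in both replicates. The *lin-35* and *efl-1* peaks, of 135 and 151 bp, cover less than 50% of the 356 bp of their replicate 1 peaks. An E2F core was found at 2 members, *efl-1* and *lin-53*, with 200 bp to each side or in the promoter from 250 bp before to 50 bp past the gene start. The cause of the other changes was not tested. The other 45 of 58 alternatives were taken as unchanged. For the median rank, 363 was taken as unchanged, and 206, 207 and 469 as changed. A count was taken as unchanged within 1.5 times the reported count. Even 9 of 9 members, as with the whole pooled list, falls within that limit, so it could not flag a rise in members. Read depth is unknown, and whether the faint peaks at *efl-2* and *lin-37* stand above background was not tested. No paired analysis was possible because there is 1 group.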

Other observations

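The octamer GCGAGACC, picked from the member windows, was not spread evenly over the IDR promoter summits. The 1828 summits were divided by rank into 4 classes of 457. The strongest class, which runs to rank 539 and holds *lin-53*, *lin-9*, *lin-54* and *efl-1*, had the octamer in 14.2% of its windows, and of these members *lin-53* alone held it. In the classes that follow, in order of falling rank, it was found in 5.91%, 4.6% and 2.19% of windows. *dpl-1*, the other member with the octamer, lay in the weakest of these classes, with rank 1943. The hexamer GAGACC was found in 21.7%, 14.9%, 12.5% and 10.3% of the windows of the 4 classes, strongest first. The CHR ran from 40.5% to 43.8% and the E2F core from 4.38% to 6.13%. These are shares of windows, given without a test, and the role of base composition in them was not tested.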
